A study of Mus musculus with 12 samples.

Results

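The genes described here are 43 genes of DNA replication and mitosis, taken by name from the 23329 rows of each table of read counts. All 43 had a row. By their textbook roles 22 of them act in preparing or carrying out S phase and 21 act in G2 and mitosis. RNA was sequenced from duodenum and spleen of wild-type C57BL/6J mice aged 2 months, 24 hours after each mouse had received 100 ul of an antibody at 1 mg/ml. The antibody was either AC H6, which activates the lymphotoxin beta receptor (LTbR), or its isotype control. the 4 groups of 3 libraries each are called AC H6 duodenum, isotype duodenum, AC H6 spleen and isotype spleen. Every group had thus received an antibody, and mice without injection were not analysed here. Whether each library was 1 mouse, and whether 1 mouse gave both tissues, is not in the labels. The p-values therefore rest on the spread between libraries, which may be technical.

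A cell copies its DNA from origins that are licensed before S phase, when Cdc6 and Cdt1 load the ring-shaped MCM helicase, and Cdc45 and the GINS complex later activate that helicase for the polymerases. Cyclin B with the kinase Cdk1 then drives mitosis, in which Plk1 and the Aurora kinases build the spindle, and Bub1, Bub1b and Ttk hold the chromosomes until Cdc20 releases them. Replication genes are induced by E2F factors as cells pass from G1 into S phase, and many mitotic genes are induced later through a promoter element called the cell cycle homology region (CHR), often with CCAAT boxes nearby. In the mouse duodenum most dividing cells sit in the crypts, and the mouse spleen holds dividing red cell precursors, granulocyte precursors and lymphocytes.

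Promoters of the members are shown because some promoter words were found in different shares of the phases. Whether these words go with the levels below was not tested. RefSeq promoter sequence on GRCm38.p6, from 250 bases before to 50 bases after the start of the gene, was matched for 35 of the 43 members. Both strands were searched for TTTGAA or TTTAAA (CHR), for CCAAT, and for the E2F type words TTTCCCGC, TTTCGCGC, TTTGCCGC and TTTGGCGC. TTTAAA is its own reverse complement, and the E2F type words can overlap each other where they lie head to head. At least 1 CHR word was found in 14 of 16 mitosis promoters (87.5%), in 6 of 19 replication promoters (31.6%) and in 30.6% of all 27025 RefSeq promoters. A CHR word together with 2 or more CCAAT boxes was found in 10 of 16 mitosis promoters (62.5%), in 2 of 19 replication promoters (10.5%) and in 4.1% of all promoters. An E2F type word was found in 7 of 19 replication promoters (36.8%), in 1 of 16 mitosis promoters (6.2%) and in 2.6% of all promoters. The single mitosis promoter with an E2F type word belonged to Cdk1, which also held 2 CHR words. These matches describe letters and are not mapped binding sites.

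The 200 bases before the start are given for 4 mitosis genes and 3 replication genes that carry these patterns, 5′ to 3′ on the strand of the gene, with every matched word in capitals. Ccnb1 lies at chr13:100786487-100786686 on the minus strand, Cdk1 at chr10:69352913-69353112 on the minus strand, Cdc20 at chr4:118437344-118437543 on the minus strand and Top2a at chr11:99024190-99024389 on the minus strand. For the replication genes the windows are chr8:75109309-75109508 on the plus strand for Mcm5, chr1:128359706-128359905 on the minus strand for Mcm6 and chrX:93632156-93632355 on the minus strand for Pola1.
Ccnb1: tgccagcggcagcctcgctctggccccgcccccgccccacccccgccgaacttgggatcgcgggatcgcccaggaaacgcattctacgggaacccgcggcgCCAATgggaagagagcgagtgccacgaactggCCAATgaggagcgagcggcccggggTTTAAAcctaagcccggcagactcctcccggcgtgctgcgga
Cdk1: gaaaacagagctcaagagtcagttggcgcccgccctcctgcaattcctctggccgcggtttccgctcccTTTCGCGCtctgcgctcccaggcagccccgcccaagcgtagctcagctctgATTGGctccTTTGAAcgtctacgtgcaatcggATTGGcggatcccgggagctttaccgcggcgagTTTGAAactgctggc
Cdc20: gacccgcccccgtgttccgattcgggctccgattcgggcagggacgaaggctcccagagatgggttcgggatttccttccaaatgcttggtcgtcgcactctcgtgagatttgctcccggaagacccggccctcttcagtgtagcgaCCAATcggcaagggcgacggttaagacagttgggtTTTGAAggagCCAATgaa
Top2a: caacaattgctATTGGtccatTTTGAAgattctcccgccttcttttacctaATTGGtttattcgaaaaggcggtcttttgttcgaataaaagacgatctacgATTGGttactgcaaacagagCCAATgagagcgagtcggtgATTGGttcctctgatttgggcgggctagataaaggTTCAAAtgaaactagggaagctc
Mcm5: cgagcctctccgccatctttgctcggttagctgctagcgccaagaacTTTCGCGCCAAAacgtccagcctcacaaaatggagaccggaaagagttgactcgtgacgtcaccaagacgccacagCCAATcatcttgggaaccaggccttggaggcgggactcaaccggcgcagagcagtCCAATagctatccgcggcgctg
Mcm6: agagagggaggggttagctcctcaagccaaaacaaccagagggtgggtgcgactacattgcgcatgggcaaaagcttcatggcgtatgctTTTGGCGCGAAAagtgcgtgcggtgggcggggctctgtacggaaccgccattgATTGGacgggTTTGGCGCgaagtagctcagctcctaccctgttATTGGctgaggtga
Pola1: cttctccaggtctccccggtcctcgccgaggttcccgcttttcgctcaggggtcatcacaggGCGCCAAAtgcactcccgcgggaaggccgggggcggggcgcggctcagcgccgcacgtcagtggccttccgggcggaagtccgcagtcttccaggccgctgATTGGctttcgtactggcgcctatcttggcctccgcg
In the Ccnb1 window 2 CCAAT boxes, whose first bases lie 99 and 67 bases before the start, precede a TTTAAA that begins 42 bases before it. Cdc20 has CCAAT boxes 53 and 8 bases before the start, with a TTTGAA between them at 18 bases before it. Mcm5 and Mcm6 each hold a pair of E2F type words on opposite strands that overlap, printed as 1 run of capitals, and Mcm6 holds a further one that begins 47 bases before the start. The Mcm5 promoter also holds 3 CCAAT boxes and a TTTAAA that begins 221 bases before the start, outside the printed window. It is thus among the 2 replication promoters with a CHR word and 2 or more CCAAT boxes.

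The libraries held 24811659 to 43851006 counts in duodenum and 13874091 to 45847467 counts in spleen, and each member had at least 90 counts in every library. Values are CPM, each library's counts relative to its total, after scaling by edgeR's trimmed mean of M values (TMM). The protocol in the labels speaks of brains, but the levels matched the tissue labels: the enterocyte enzyme Sis had 2311 to 4242 CPM in duodenum and 3.98 to 4.70 CPM in spleen, and the B cell receptor gene Cd79a had 3.11 to 4.11 CPM in duodenum and 526.9 to 716.7 CPM in spleen. A list of 8 brain genes summed to 45.8 to 59.4 CPM in duodenum and 88.2 to 104.1 CPM in spleen. Haemoglobin genes took 0.0323% to 0.0873% of the counts in duodenum and 7.59% to 28.3% in spleen. The pancreatic enzyme amylase 2 took 8.64% of the counts in AC H6 duodenum 3 and 2.13% in isotype duodenum 2, against at most 0.745% in the other duodenum libraries. The ribosomal RNA row Rn45s took 7.56% of the counts in isotype duodenum 1 and 0.088% to 1.18% in the other duodenum libraries. Lars2 took 0.82% in isotype duodenum 1 and at most 0.089% in the others.

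In the duodenum, RNA of most members of both phases made up a larger share of the AC H6 libraries than of the isotype libraries, by at most 1.70-fold. Of the 43 members 30 rose and 0 fell in edgeR's quasi-likelihood test (Benjamini-Hochberg adjusted p under 0.05, 15667 genes tested), against 18.5% of all genes tested that rose and 16.1% that fell. Of the 22 replication genes 13 rose, with a median log2 change of 0.41 over all 22, and 17 of the 21 mitosis genes rose, with a median of 0.46. Values above 0 were found for 41 of 43 members, against 51.2% of all genes, and the median over all genes tested was 0.01. Groups that did not overlap, with every AC H6 library above every isotype library, were seen for 33 members, against 25.7% of all genes. In bulk tissue a larger number of dividing cells and more RNA per dividing cell cannot be told apart.

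**Figure D1:**
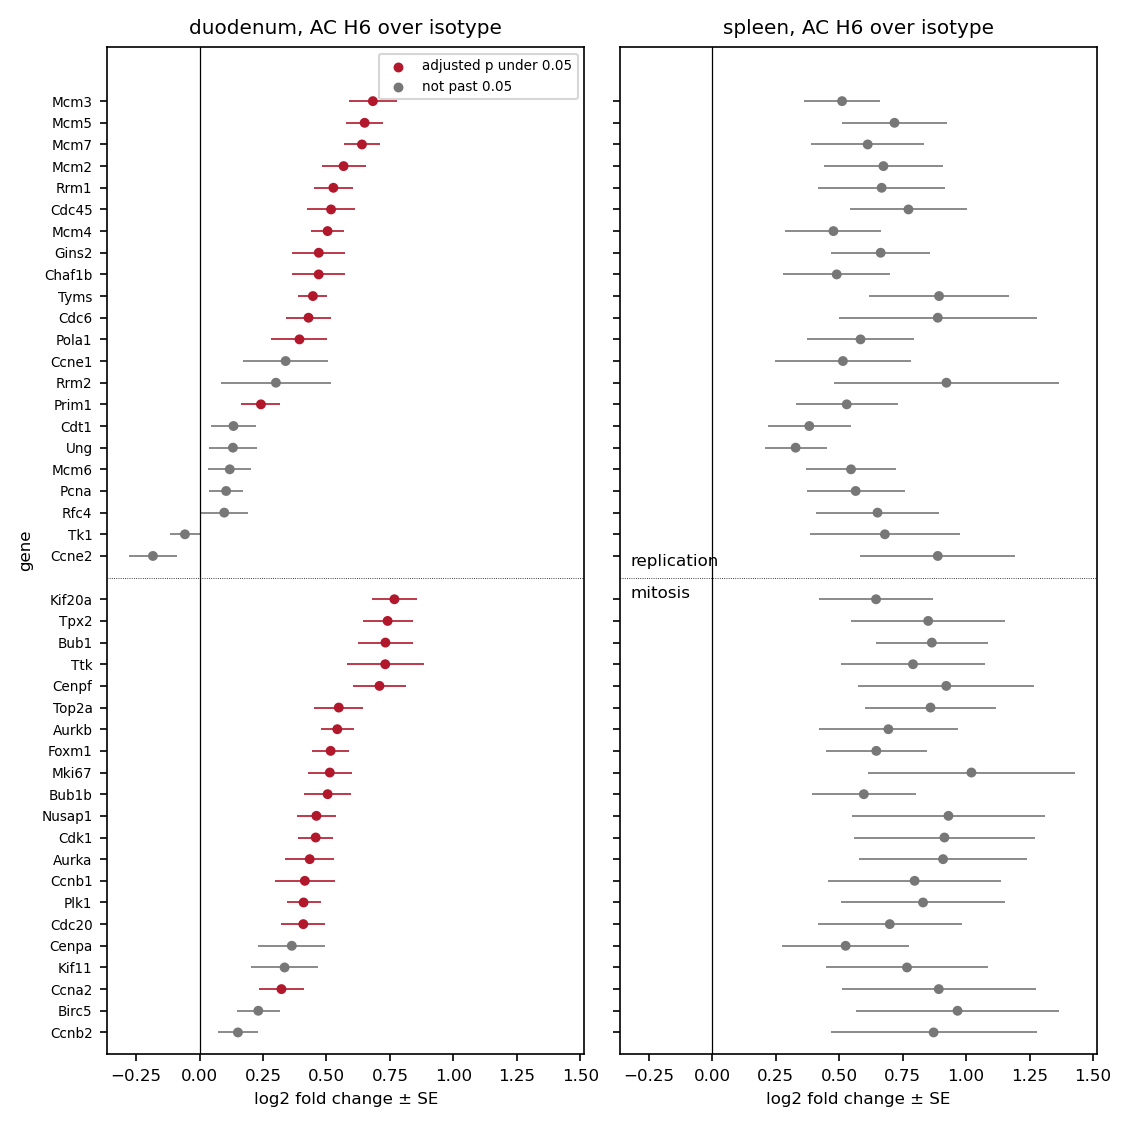
Log2 fold change of AC H6 over isotype ± SE for each of the 43 genes (vertical axis, replication above and mitosis below), in duodenum (left) and spleen (right), from edgeR with 3 libraries per group. Red points passed an adjusted p of 0.05. In duodenum 30 genes are red and the values spread between -0.18 and 0.77, and in spleen 0 are red although all 43 values are above 0, with wider errors.

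Of the 8 licensing genes 6 rose, and the 8 log2 changes ran from 0.12 to 0.68. Mcm5, a subunit of the helicase ring at chr8:75109569-75128439 (plus strand, GRCm38), had 54.7, 50.5 and 58.5 CPM in AC H6 duodena 1 to 3, against 36.8, 35.9 and 31.6 CPM in isotype duodena. The groups did not overlap, and the log2 change was 0.65 ± 0.07 (SE, 1.57-fold, edgeR adjusted p = 4.76e-04). Mcm7, another subunit, had 60.3, 55.8 and 58.7 CPM in AC H6 duodena, against 36.6, 41.1 and 34.4 CPM in isotype duodena (0.64 ± 0.07, edgeR adjusted p = 3.76e-04). For Mcm4 the AC H6 values were 39.5, 38.9 and 44.6 CPM and the isotype values 30.5, 28.9 and 27.4 CPM, with a log2 change of 0.50 ± 0.07 (edgeR adjusted p = 8.71e-04). Mcm3 and Mcm2 rose as well, by 0.68 and 0.57 on the log2 scale, and Cdc6, the loader of the ring, rose by 0.43. The 2 licensing genes that were not called were Mcm6 (0.12 ± 0.09) and Cdt1 (0.13 ± 0.09).

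Mcm6, at chr1:128331590-128359664 (minus strand, GRCm38), differed from the other 5 subunits of the same ring. It had 92.8, 84.9 and 90.2 CPM in AC H6 duodena, against 87.0, 87.4 and 72.4 CPM in isotype duodena, and these groups overlapped. Per length of its exons Mcm6 was already high under isotype, at 18.8 ± 1.96 RPKM (CPM per kilobase of exon; SD, n = 3), where the means of the other subunits lay between 8.07 and 12.6 RPKM. The ratio of Mcm6 to the mean of the other 5, a measure chosen after the values were seen, was 1.41, 1.37 and 1.30 in AC H6 duodena and 2.00, 1.89 and 1.86 in isotype duodena. In spleen that ratio lay between 0.767 and 0.850 in both groups. The AC H6 and isotype ratios did not overlap in duodenum, and they did overlap in spleen.

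**Figure D2:**
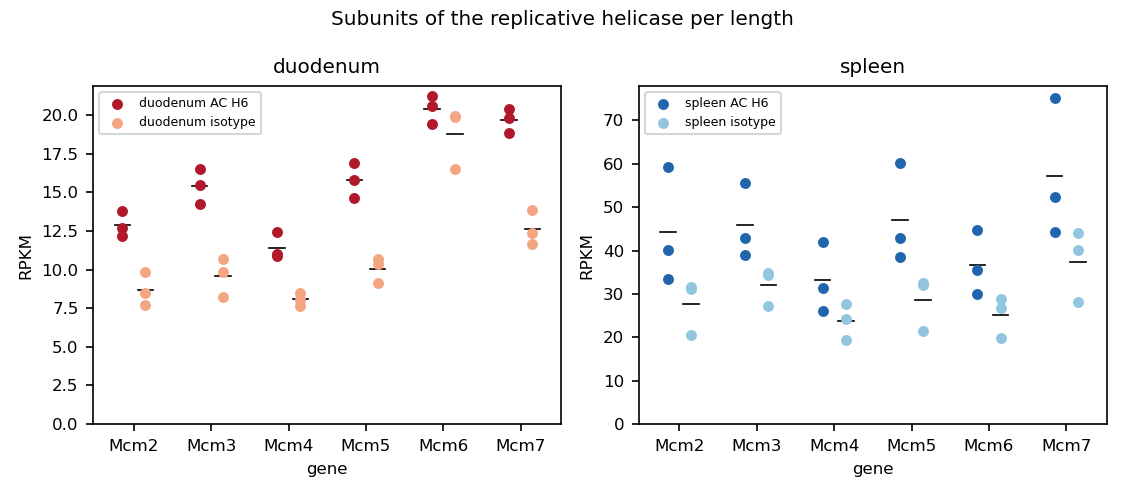
Levels per exon length (RPKM, vertical axis) of the 6 subunits of the MCM helicase in each library of duodenum (left) and spleen (right), AC H6 darker and isotype lighter; bars mark the mean of 3 libraries. In duodenum the AC H6 points lie above the isotype points for every subunit except Mcm6, whose groups overlap, and in spleen Mcm6 lies within the range of the other subunits.

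Among genes of nucleotide supply, Tyms, which makes thymidylate, had 23.2, 23.0 and 24.7 CPM in AC H6 duodena, against 16.8, 17.5 and 17.7 CPM in isotype duodena. Its log2 change was 0.45 ± 0.06 (edgeR adjusted p = 8.12e-04), with no overlap between the groups. Rrm1, the large subunit of ribonucleotide reductase, rose by 0.53 on the log2 scale, while its partner Rrm2 had a change of 0.30 ± 0.22 that was not called. The isotype values of Rrm2 were 31.3, 59.4 and 33.3 CPM, so that isotype duodenum 2 exceeded all 3 AC H6 libraries, at 50.2, 46.3 and 56.8 CPM. Tk1, the thymidine kinase of the salvage route, did not pass the test and its value was below 0, with 23.2, 20.8 and 22.7 CPM in AC H6 duodena against 23.9, 22.4 and 23.1 CPM in isotype duodena (-0.06 ± 0.06, edgeR adjusted p = 0.495). The helicase activators Cdc45 and Gins2 rose by 0.52 and 0.47 on the log2 scale. Pola1 and Prim1, of the polymerase that starts each strand, rose by 0.39 and 0.24, and Chaf1b, of the chromatin assembly factor that follows the fork, rose by 0.47.

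Pcna, the sliding clamp and the member with the highest level per length in all 4 groups, had 124.9, 123.6 and 136.0 CPM in AC H6 duodena and 121.4, 118.9 and 117.3 CPM in isotype duodena. Every AC H6 value was above every isotype value, but the log2 change was only 0.10 ± 0.07 (edgeR adjusted p = 0.251). Rfc4, of the complex that loads the clamp, and Ung, which removes uracil from DNA, had changes of 0.10 and 0.13 that were not called. Rfc4 shares 13.4% of its exon bases with Eif4a2 on the other strand, which fell by 0.27. The 2 E cyclins, partners of Cdk2 at the start of S phase, were not called either, and their values had opposite signs. Ccne1 had 7.0, 6.6 and 7.4 CPM in AC H6 duodena against 3.9, 6.6 and 5.9 CPM in isotype duodena (0.34 ± 0.17, edgeR adjusted p = 0.15). Ccne2 had 8.8, 9.4 and 10.5 CPM in AC H6 duodena against 10, 11.2 and 11.4 CPM in isotype duodena (-0.18 ± 0.10, edgeR adjusted p = 0.167). It shares 10.5% of its exon bases with Ints8 on the other strand, which was not called (0.14).

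Of the mitosis genes, Kif20a, Tpx2, Bub1, Ttk and Cenpf had the largest fitted changes. Kif20a, a kinesin of cytokinesis at chr18:34624613-34633277 (plus strand, GRCm38), had 28.3, 24.1 and 30.1 CPM in AC H6 duodena, against 16.1, 15.4 and 17.0 CPM in isotype duodena, a log2 change of 0.77 ± 0.09 (1.70-fold, edgeR adjusted p = 4.87e-04). The library kit does not mark strand, so reads over 31.8% of its exon bases cannot be told from Cdc23 on the other strand, which itself rose by 0.26. Tpx2, a spindle assembly factor that activates Aurora A, had 26.0, 22.1 and 29.0 CPM in AC H6 duodena, against 14.6, 15.5 and 16.1 CPM in isotype duodena (0.74 ± 0.10, edgeR adjusted p = 9.85e-04). Neither gene overlapped between the groups. The checkpoint kinases Bub1 and Ttk both rose by 0.73 on the log2 scale, Bub1b by 0.50 and Cdc20, which the checkpoint holds in check, by 0.41. Cenpf, a large kinetochore protein, rose by 0.71.

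Aurkb, the kinase of the chromosomal passenger complex, had 18.4, 18.3 and 19.8 CPM in AC H6 duodena and 13.3, 12.4 and 13.1 CPM in isotype duodena. The groups were well apart, with a log2 change of 0.54 ± 0.07 (edgeR adjusted p = 6.26e-04). Foxm1, the transcription factor of many G2 and mitosis genes, had 16.4, 16.9 and 18.1 CPM in AC H6 duodena against 11.7, 11.6 and 12.7 CPM in isotype duodena (0.52 ± 0.07, edgeR adjusted p = 0.00119). Mki67, at chr7:135689784-135716361 (minus strand, GRCm38), encodes a protein that coats mitotic chromosomes. It had 130.4, 121.4 and 150.7 CPM in AC H6 duodena against 91.8, 94.3 and 95.9 CPM in isotype duodena (0.51 ± 0.09, edgeR adjusted p = 0.00295). Top2a, the topoisomerase that untangles sister chromosomes, rose by 0.55 ± 0.10, with 114.2, 111.2 and 141.1 CPM in AC H6 duodena and 85.1, 83.5 and 82.0 CPM in isotype duodena. AC H6 duodenum 3 was the highest library for both Mki67 and Top2a.

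Cdk1 rose by 0.46 ± 0.07, with 27.8, 26.5 and 31.2 CPM in AC H6 duodena and 20.7, 20.5 and 21.1 CPM in isotype duodena (edgeR adjusted p = 0.00172). Its partner Ccnb1 rose by 0.41 ± 0.12, with 23.5, 22.7 and 30.5 CPM in AC H6 duodena and 20.9, 17.7 and 19.2 CPM in isotype duodena (edgeR adjusted p = 0.0259), a call that was lost without isotype duodenum 2 or without isotype duodenum 3. Plk1, Aurka, Nusap1 and Ccna2 rose by 0.41, 0.43, 0.46 and 0.32 on the log2 scale. The 4 mitosis genes not called were Ccnb2, Birc5, Kif11 and Cenpa, with changes between 0.15 and 0.36. Fitted together with the spleen libraries, so that all 12 shared 1 estimate of the spread, the same 6 duodenum libraries gave 7 called members in place of 30. The share of all genes called in that joint fit is not given.

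AC H6 duodenum 3 had the highest level of its group for 19 of 21 mitosis genes and 15 of 22 replication genes, against 37.5% of all genes, and AC H6 duodenum 2 had the lowest for 18 and 17 of them. AC H6 duodenum 3 was also the library with the most pancreatic RNA. The 8 acinar genes summed to 27.9 to 32460 CPM in AC H6 duodena and 23.1 to 8082 CPM in isotype duodena, and 0 of 8 were called. With the mean level of the acinar list as a covariate 29 members were called, all 29 among the 30, and without AC H6 duodenum 3 there were 27. The 11 genes of intestinal stem and crypt cells summed to 778.6 to 971.8 CPM in AC H6 duodena and 621.9 to 685.8 CPM in isotype duodena, and none was at 0. Most of the difference between these sums came from Olfm4. It had 400.1, 455.7 and 568.7 CPM in AC H6 duodena and 265.9, 308.2 and 296.4 CPM in isotype duodena. Of these 11 genes 6 rose, among them the stem cell transcription factor Ascl2 (1.31 ± 0.14) and Smoc2 (0.58 ± 0.06), and 1 fell, the Wnt inhibitor Rnf43 (-0.56 ± 0.08). Of 10 enterocyte genes 2 rose and 6 fell. The part of this cell makeup in the values of the members was not tested.

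In the spleen the fitted change of AC H6 over isotype was above 0 for all 43 members, against 49.8% of all genes. However, 0 of 43 were called by edgeR among 15270 genes, of which 2.06% were called higher and 1.92% lower. At an unadjusted p under 0.05 there were 37 members, all higher, against 14.6% of all genes, and with limma-voom 0 were called, against 1.89%. DESeq2 called 12 members higher, against 5.34% of all genes. The median log2 change was 0.63 for the 22 replication genes (0.33 to 0.92) and 0.85 for the 21 mitosis genes (0.53 to 1.02), where the median of all genes was -0.001. Groups that did not overlap were seen for 23 members, against 15.9% of all genes.

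Bub1, the checkpoint kinase, had the smallest p among the members. It had 37.9, 22.8 and 27.9 CPM in AC H6 spleens 1 to 3, against 18.6, 18.1 and 12.04 CPM in isotype spleens, and the groups did not overlap (0.87 ± 0.22, edgeR adjusted p = 0.0718). Mcm5 had 207.9, 132.8 and 147.9 CPM in AC H6 spleens, against 110.7, 112.0 and 74.4 CPM in isotype spleens, again without overlap (0.72 ± 0.21, edgeR adjusted p = 0.0905). Mcm3 had 168.4, 118.4 and 129.8 CPM in AC H6 spleens and 104.1, 105.5 and 82.6 CPM in isotype spleens (0.51 ± 0.15, edgeR adjusted p = 0.0923). In all 3 genes AC H6 spleen 2 was the lowest AC H6 library and isotype spleen 3 the lowest isotype library.

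Mki67 had the largest fitted change, at 1.02 ± 0.41 (2.03-fold, edgeR adjusted p = 0.161). Its levels were 1064, 538.1 and 705.8 CPM in AC H6 spleens and 452.9, 515.2 and 169.2 CPM in isotype spleens. AC H6 spleen 2 was close to isotype spleen 2, and isotype spleen 3 was far below the other libraries. Top2a had 384.6, 232.6 and 278.4 CPM in AC H6 spleens, against 182.2, 202.9 and 108.3 CPM in isotype spleens (0.86 ± 0.26, edgeR adjusted p = 0.0981). Cdk1 had 83.1, 43.6 and 58.3 CPM in AC H6 spleens, against 39.8, 41.8 and 16.6 CPM in isotype spleens (0.91 ± 0.36, edgeR adjusted p = 0.154). For Ccnb1 the AC H6 values 95.5, 46.8 and 61.4 CPM overlapped the isotype values 45.5, 49.5 and 22.3 CPM (0.80 ± 0.34, edgeR adjusted p = 0.178). Pcna had 362.6, 214.4 and 251.7 CPM in AC H6 spleens and 207.2, 194.8 and 158.2 CPM in isotype spleens (0.57 ± 0.19, edgeR adjusted p = 0.123). Foxm1 and Gins2 had changes of 0.65 ± 0.20 and 0.66 ± 0.19 with edgeR adjusted p of 0.102 and 0.0935, and 70.7% of the exon bases of Gins2 are shared with Gse1 on the other strand.

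**Figure D3:**
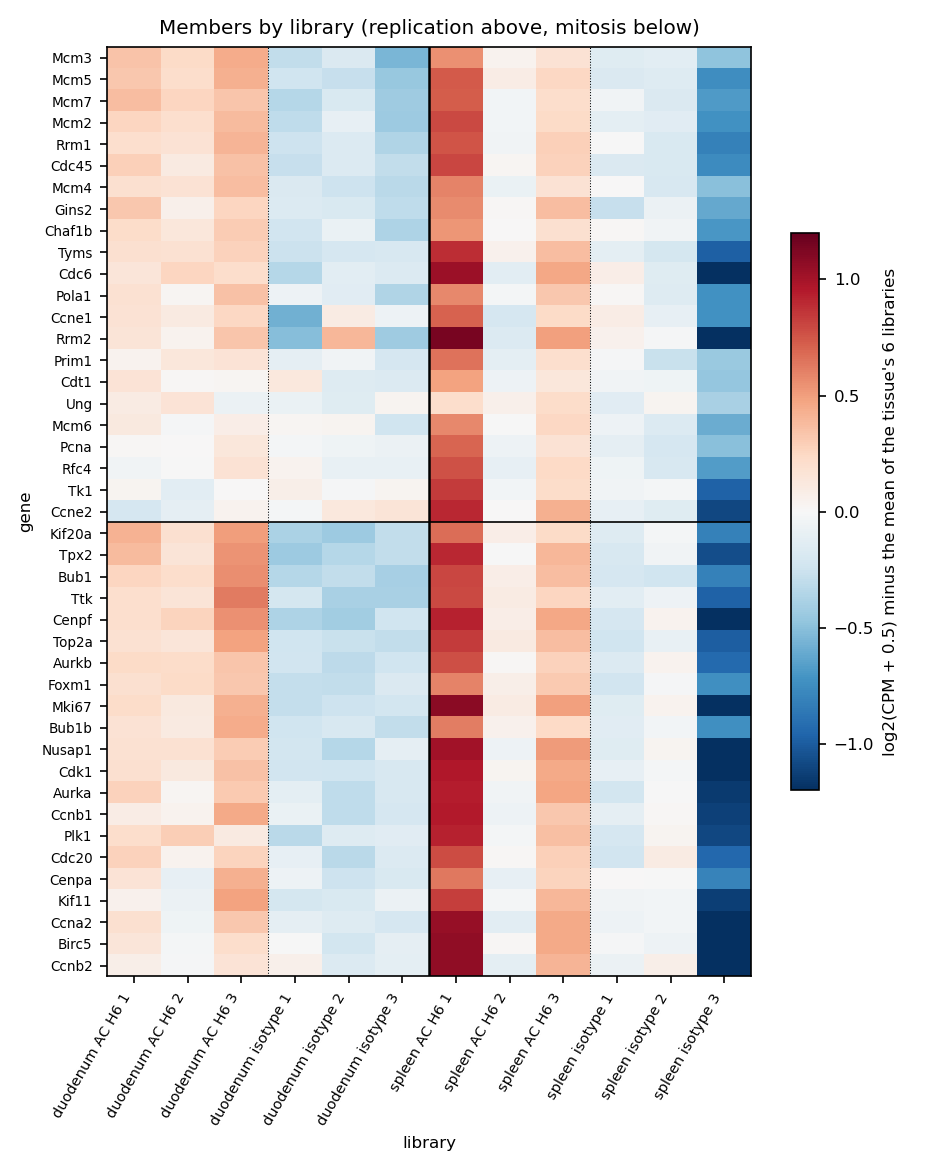
Level of each of the 43 genes (rows, replication above and mitosis below) in each of the 12 libraries (columns), as log2(CPM + 0.5) minus the mean of the 6 libraries of the tissue. In spleen the columns AC H6 1 and isotype 3 are the extremes for nearly every row, whereas in duodenum the rows above and below differ less between libraries of a group.

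The spread between spleen libraries ran through the whole gene group. AC H6 spleen 1 was the highest of its group for 42 of 43 members and AC H6 spleen 2 the lowest for all 43, and isotype spleen 3 was the lowest of its group for all 43. Over all genes tested, isotype spleen 3 was the lowest of its group for 36.3% and AC H6 spleen 2 for 33.5%. The phases split the remaining isotype spleens. Isotype spleen 1 was the highest for 17 of 22 replication genes, and isotype spleen 2 was the highest for 18 of 21 mitosis genes.

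The standard deviation of a gene between the 3 libraries of a group, on the log2 scale, had a median of 0.39 over replication genes and 0.43 over mitosis genes in AC H6 spleens, where the median of all genes was 0.11. In isotype spleens the medians were 0.34 for replication and 0.60 for mitosis, against 0.10 for all genes. In AC H6 duodena they were 0.10 and 0.17, against 0.10 for all genes, and in isotype duodena 0.11 and 0.08, against 0.10. In spleen the medians of both phases were above those of all genes in both groups, and in duodenum they were near them except for the mitosis genes of AC H6 duodena. The widest ratio of the highest to the lowest library in isotype spleens was that of Mki67, at 3.04, and the narrowest of the 43 was 1.28. In isotype duodena the ratio was at most 1.90, for Rrm2, and Mki67 had 1.04.

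**Figure D4:**
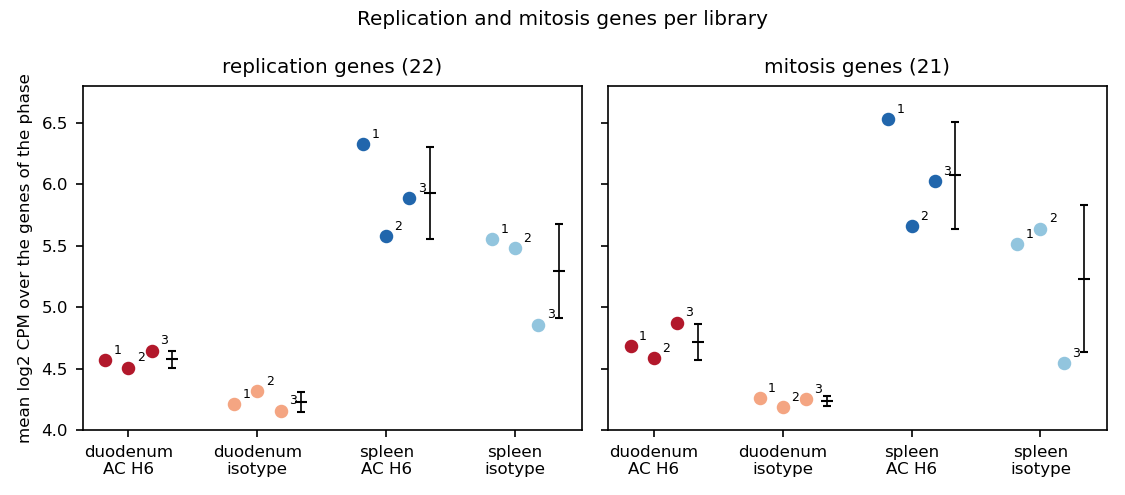
Mean log2 CPM over the 22 replication genes (left) and the 21 mitosis genes (right) in each library, numbered by replicate; bars mark the mean ± SD of 3 libraries. AC H6 and isotype duodena are narrow and apart in both panels, and the spleen groups are wide, with isotype spleen 3 lowest and AC H6 spleen 1 highest.

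The means of the phases give the same picture per library. The replication mean was 4.57 ± 0.07 in AC H6 duodena and 4.23 ± 0.08 in isotype duodena, and the mitosis mean was 4.71 ± 0.15 in AC H6 duodena and 4.23 ± 0.04 in isotype duodena (log2 CPM, SD, n = 3). In spleen the replication mean was 5.93 ± 0.38 for AC H6 and 5.30 ± 0.38 for isotype, and the mitosis mean was 6.07 ± 0.44 for AC H6 and 5.23 ± 0.60 for isotype. The replication mean less the mitosis mean, which compares the phases within a library, was -0.20, -0.09 and -0.14 in AC H6 spleens and 0.04, -0.16 and 0.32 in isotype spleens. In AC H6 duodena it was -0.11, -0.08 and -0.23, and in isotype duodena -0.05, 0.13 and -0.10. All 6 AC H6 libraries were below 0 and the isotype libraries lay on both sides, but where 0 falls depends on the genes listed. Within each tissue the groups overlapped, and no test was made on these means.

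Red cell precursor genes moved with the members across the spleen libraries. The 18 genes of that list summed to 9519, 3531 and 6170 CPM in AC H6 spleens 1 to 3 and to 3158, 4111 and 926.3 CPM in isotype spleens, and none was at 0. AC H6 spleen 1 and isotype spleen 3 were the extremes here too, and 0 of the 18 genes were called, with a median change of 1.25. Alas2, which starts haem synthesis in red cell precursors, had 1790, 840.2 and 1307 CPM in AC H6 spleens against 572.4, 876.6 and 310.9 CPM in isotype spleens, with overlap (1.16 ± 0.39). With the mean of this list as a covariate the median change of the members was 0.14, against 0.70 without it, 4 of the 43 changed sign, and 0 were called. The covariate came from the same libraries, and all 18 of its genes had fitted changes above 0. This fit therefore cannot assign the members' changes to a cell type. The 7 genes of early neutrophil precursors summed to 218.5 to 314.2 CPM in AC H6 spleens and 59.0 to 122.9 CPM in isotype spleens, and all 7 rose, with a median change of 1.52. Of 9 T cell genes 4 fell and of 8 B cell genes 2 fell. Germinal centre genes, 8 in number, summed to 95.6 to 126.7 CPM in AC H6 spleens and 99.1 to 115.0 CPM in isotype spleens, with 0 called (edgeR). The part of any 1 cell type in the members' changes was not tested.

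**Figure D5:**
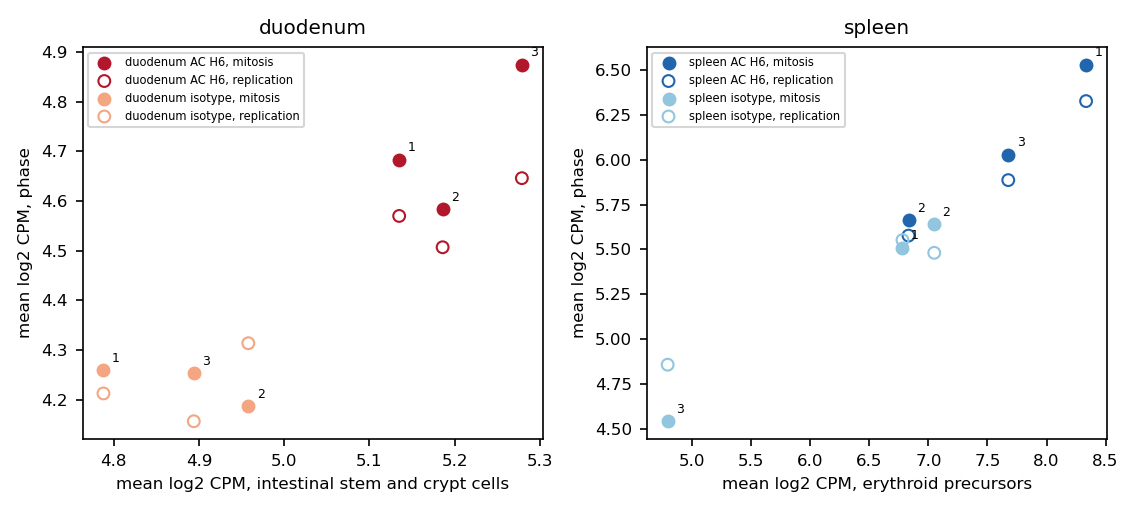
Mean log2 CPM of the mitosis genes (filled) and replication genes (open) in each library (vertical axis) against the mean of the 11 stem and crypt genes in duodenum (left) and of the 18 red cell precursor genes in spleen (right), numbered by replicate at the mitosis points. In spleen AC H6 spleen 1 is at the upper right and isotype spleen 3 at the lower left, and in duodenum the AC H6 points lie above and to the right of the isotype points.

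Single libraries carried much of the size of the spleen changes. Without isotype spleen 3 the median change of the members was 0.50, and without AC H6 spleen 1 it was 0.50 as well, against 0.70 with all libraries, and 0 members were called either way. Without AC H6 spleen 2 the median was 0.86 and 3 members were called, and in 1 fit of all 12 libraries 10 were called.

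The difference between the tissues was tested itself, as the change in duodenum less the change in spleen. For 0 of the 43 members was this difference called by edgeR, against 10.9% of 16655 genes called higher and 9.13% called lower. At an unadjusted p under 0.05 there were 3 members, all lower, against 16.5% of all genes, DESeq2 called 1 lower, against 10.5%, and limma-voom called 0. In simulated counts the edgeR fit of this difference recovered 10 of 67 genes changed 1.5-fold, so equal changes in the tissues are not shown. The median difference was -0.24 for replication and -0.33 for mitosis genes, and -0.27 for all 43. That of all 43 rested on single spleen libraries: it was -0.08 without isotype spleen 3, when 14 members changed sign, and -0.07 without AC H6 spleen 1, when 13 did. Ccne2, at chr4:11191351-11204779 (plus strand, GRCm38), had the smallest p, at -1.09 ± 0.36 (edgeR adjusted p = 0.0533). Its levels in spleen were 51.0, 27.2 and 36.7 CPM under AC H6 and 25.3, 24.5 and 12.4 CPM under isotype, without overlap, whereas its AC H6 values in duodenum leaned below those of isotype. DESeq2 called it, with an adjusted p of 0.0344, and so did the fits with another scaling or a stricter filter. Tk1 and Pcna followed, at -0.76 ± 0.34 and -0.48 ± 0.22 (edgeR adjusted p = 0.143 and 0.149). Birc5, the passenger complex subunit survivin, had -0.75 ± 0.46, Ccnb2 -0.74 ± 0.47 and Ccna2 -0.59 ± 0.44. Of all 43 members, these 6 among them, 39 had a difference below 0 and 4 had one above 0, Mcm3 at 0.15, Kif20a at 0.10, and Mcm4 and Mcm7 at 0.01 each, all within their errors of 0.20 to 0.27, and the last pair changed sign with DESeq2. For 48.8% of all genes the difference was above 0. Mki67, Top2a, Ccnb1, Cdk1 and Mcm5 had differences of -0.53, -0.33, -0.40, -0.48 and -0.09, with errors of 0.25 to 0.47.

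Under isotype antibody, duodenum was below spleen for most members. Of the 43, 26 were lower and 2 higher in duodenum, where 43.8% of all 16029 genes were lower and 42.2% higher. These isotype libraries are the same ones that serve as controls in both treatment comparisons. The median log2 difference of duodenum over spleen was -0.57 for replication and -0.69 for mitosis genes, against -0.05 for all genes. Because most genes were called in this comparison, where 0 falls between the tissues depends on the scaling. The median of all 43 members was -0.62 with TMM and -0.55 with DESeq2-style size factors. Ccne1 had the largest difference, with 3.9, 6.6 and 5.9 CPM in isotype duodena against 38.3, 33.4 and 21.5 CPM in isotype spleens (-2.07 ± 0.25, edgeR adjusted p = 7.34e-05). Ccne2 differed less and was not called (-0.51 ± 0.24). Per exon length Ccne1 was 0.632 to 0.945 times Ccne2 in isotype duodena and 2.18 to 2.77 times Ccne2 in isotype spleens, so the order of the E cyclins was turned round between the tissues. In AC H6 duodena that ratio was 1.12 to 1.27, above every isotype duodenum, and in AC H6 spleens it was 1.84 to 1.86, below every isotype spleen. These ratios were chosen after the values were seen.

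Mki67 had 91.8, 94.3 and 95.9 CPM in isotype duodena against 452.9, 515.2 and 169.2 CPM in isotype spleens (-1.59 ± 0.35, edgeR adjusted p = 0.00282). Cenpa, the histone variant that marks centromeres, had a difference of -1.29 ± 0.21, Nusap1 of -1.21 ± 0.32, Tpx2 of -1.11 ± 0.24 and Kif20a of -0.89 ± 0.19, all called lower. Among the helicase subunits Mcm2, Mcm3, Mcm4, Mcm5 and Mcm7 were lower, with differences between -1.09 and -1.32, and Mcm6 had 0.00 ± 0.14. Rrm1 was lower, at -0.96 ± 0.18. Pcna and Top2a were lower (-0.23 ± 0.09 and -0.56 ± 0.20, edgeR adjusted p = 0.0479 and 0.0288), calls that were lost when any of these libraries other than isotype spleen 3 was left out, and Cdk1 and Ccnb1 were not called (-0.24 ± 0.30 and -0.60 ± 0.26). The members higher in duodenum were Plk1, with 31.2, 35.1 and 35.6 CPM in isotype duodena against 25.9, 30.3 and 13.7 CPM in isotype spleens (0.96 ± 0.25), and Ung (0.39 ± 0.12). Gins2 and Tyms also had values above 0 but were not called (0.32 ± 0.16 and 0.36 ± 0.20). Gse1, with which Gins2 shares 70.7% of its exon bases, had 0.175. With the replicate numbers as a block, an alternative fit whose pairs the labels do not state, 3 members were called higher and 29 lower. No call was lost, and those gained were Gins2, higher in duodenum, and Tk1, Chaf1b and Ccnb1, lower in duodenum (edgeR adjusted p = 0.0387, 0.0337, 0.0125 and 0.0431 with the block). These p-values hold only if the numbers mark pairs. The share of all genes called with the block is not given, so the gain is not read as particular to the members. Without isotype spleen 3, the library low in all members, 40 members were called in place of 28. The share of all genes called in that fit is not given, so this count is not read as particular to the members.

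Other genes of replication and mitosis, which are not members, gave similar counts in duodenum. Of 42 other replication genes 23 rose and 1 fell, and of 64 other mitosis genes 52 rose and 1 fell. Pold1, a catalytic subunit of polymerase delta, rose by 0.78 ± 0.06, Dnmt1, which copies methylation to new strands, by 0.42 ± 0.06, and Uhrf1, its partner, by 0.50 ± 0.07. Mybl2, a transcription factor that binds CHR promoters with the MuvB complex, rose by 1.10 ± 0.10, Ect2, an activator of cytokinesis, by 1.28 ± 0.12, and Incenp, of the passenger complex, by 0.71 ± 0.05. In spleen 0 of 42 and 0 of 64 were called by edgeR, with medians of 0.43 and 0.72. At an unadjusted p under 0.05 there were 28 and 45, all higher, and DESeq2 called 12 and 16.

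Regulators of entry into the cycle were mixed in duodenum, where 18.5% of all genes tested rose and 16.1% fell. Of 9 G1 cyclins and kinases 4 rose and 2 fell. Cdk4, Ccnd3 and Ccnd1, a kinase and cyclins that act on the retinoblastoma protein, rose by 0.54 ± 0.06, 0.36 ± 0.05 and 0.46 ± 0.07. Rb1, which encodes that protein, and Tfdp2, a partner of E2F, fell, with changes of -0.46 ± 0.06 and -0.43 ± 0.05, and 2 of the 15 genes of the E2F and pocket protein list rose while 3 fell. Of 7 tested CDK inhibitors only Cdkn1c was called, at -0.74 ± 0.13. Of 13 targets of p53, 4 rose and 1 fell, with Eda2r at 1.52 ± 0.22, Phlda3 at 0.79 ± 0.11 and Zmat3 at 0.39 ± 0.06. In spleen 2 genes of these lists were called, the CDK inhibitor Cdkn1a (0.36 ± 0.07, edgeR adjusted p = 0.045) and Tfdp1, the other partner of E2F (0.57 ± 0.12, edgeR adjusted p = 0.0486). The 9 G1 cyclins and kinases and the 13 p53 targets had 0 calls in spleen with edgeR, 4 and 5 at an unadjusted p under 0.05, and 3 and 0 with DESeq2.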

How the data were processed

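Total RNA of duodenum and spleen went into Illumina TruSeq libraries, per the labels' protocols, with a kit that does not mark strand. The mouse build mm10 and the tools STAR 2.3, bcl2fastq 2.19, Trimmomatic and edgeR are named in the submitters' processing notes, but no counting tool is named there. For each of the 12 libraries the authors deposited a table of raw read counts by gene. Per the file headers these include reads with several matches. Of 23329 rows 2989 were 0 in all libraries.

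From these counts edgeR 4.0.16 in R 4.3.3 was used for TMM factors, for CPM and, after filterByExpr, for quasi-likelihood F-tests on the 6 libraries of each tissue, on all 12 for the interaction, and on the 6 isotype libraries for the tissues. Adjusted p-values are Benjamini-Hochberg values over all genes tested, and the SE is the log2 change over the square root of F. DESeq2 1.42.0, limma-voom (limma 3.58.1), other scalings and filters, covariates, a replicate block and leaving out each library were alternatives. The fits were first tested on simulated counts, at an adjusted p under 0.05. Of their calls 8.47% were false in the spleen fit, 9.84% in duodenum, 1.98% in the interaction and 10.7% between the tissues. Of 67 genes changed 1.5-fold these fits recovered 38, 42, 10 and 33. Exon lengths and gene positions are from GENCODE M21, promoters from RefSeq.

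The members and lists were chosen with earlier results of these data known. Named genes are the called members of smallest p (at most 8 per comparison), the 3 of smallest p per phase and comparison, Mki67, Top2a, Pcna, Ccnb1, Cdk1 and Mcm5, members against the direction of their phase, and up to 3 genes per other list. Other members are given to account for all 43. Of the 20 other lists with 276 entries, 5 entries were matched by an older symbol. Marker lists not printed in full concern megakaryocytes (4 of 8 rose in spleen, 1 of 5 tested in duodenum), mature neutrophils (10 of 11 rose in spleen, and 5 of 9 tested rose and 1 fell in duodenum), plasma cells (0 of 7 called in spleen, 1 of 7 fell in duodenum), Paneth cells (1 of 6 rose and 2 fell in duodenum) and goblet cells (2 of 6 fell in duodenum). Between isotype duodenum and isotype spleen, same-numbered libraries had correlations of 0.19, 0.35 and 0.11, and the other pairs -0.25 to 0.07. These values are weak, and differently numbered AC H6 and isotype duodena reached 0.46. The labels do not state pairs, and the correlations came from the libraries that the block was then fitted to. The numbers are therefore not established as pairs. With the block 32 members were called in place of 28. The tissue difference of 1 further gene of those lists is not reported here.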

Additional observations from a re-analysis of the deposited data

Results flagged for a closer look

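The responses of 13 genes that are not among the 43, from the lists of replication, mitosis and their control, differed between the tissues in edgeR's test of the difference itself (duodenum change less spleen change, adjusted p under 0.05). These lists held 42 other replication and 64 other mitosis genes. They also held 9 G1 cyclins and kinases, 8 CDK inhibitors, 15 E2F and pocket protein genes and 13 p53 targets. Of all 16655 genes tested 10.9% were called higher and 9.13% lower, a larger share than in these lists. The values were -0.75 for the phosphatase gene Cdc25a, -0.59 for Hjurp, the chaperone of the centromere histone, and 0.53 for the polymerase gene Pold1. They were -0.45 for Cdkn1a, -0.82 for Rb1, 0.52 for the p53 target Phlda3 and -0.53 for Myc. Further values were -0.46 for Lin54, -0.50 for the securin gene Pttg1, -0.36 for Pold2 and -0.30 for E2f6. Mcm10 had -0.88 and Tfdp2 -1.36. In Cdc25a, Hjurp, Rb1, Myc and Tfdp2 the change was a called fall in duodenum and a value above 0 in spleen that was not called. Pold1 and Phlda3 rose in duodenum, and Cdkn1a rose in spleen. Lin54, Pttg1, Pold2, E2f6 and Mcm10 were called in neither tissue alone. The causes were not tested.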

How the results depend on the processing

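Counts of called members under the alternatives were as follows. In spleen, where edgeR called 0 members and 608 genes in all, DESeq2 called 12 and 1356, and 1 fit of all 12 libraries called 10 and 1390. Leaving out 1 spleen library gave 0 to 3 members and 14 to 1132 genes, and the erythroid covariate 0 members and 234 genes. The replicate block left 1 gene called in spleen and 0 members. Same-numbered libraries correlated at 0.26, -0.13 and -0.03 in spleen and at 0.40, 0.24 and -0.20 in duodenum. Differently numbered ones reached 0.41 in spleen and 0.46 in duodenum, so pairs within a tissue are not shown. With the block 31 members were called in duodenum. In the interaction the block joined same-numbered libraries within a tissue, and 0 members were called. Pairs between the tissues were not put into that fit. No other count of called members left the range of 1.5 times the main count because of the block. In duodenum 1 fit of all 12 libraries called 7 members in place of 30, and the spread it uses is shared with the wider spleen libraries. Leaving out 1 duodenum library gave 26 to 32. In the interaction, DESeq2-style size factors, the stricter filter, DESeq2 and the fit without haemoglobin, Rn45s, Lars2 and amylase 2 genes called 1 member each, and leaving out 1 library gave 0 to 3. The tissue count of 28 was 23 to 40 without 1 library. Counts of all genes called under these alternatives are given for spleen only.

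In the interaction 14 members changed sign without isotype spleen 3 and 13 without AC H6 spleen 1, against at most 3 under any other alternative. The interaction of Mcm4 was -0.003 and that of Mcm7 -0.001 with DESeq2-style size factors and with DESeq2. Without 1 library Mcm4 ran from -0.138 to 0.211, Mcm7 from -0.146 to 0.251, Kif20a from -0.064 to 0.335 and Mcm5 from -0.214 to 0.125. The tissue difference of Mcm6 was -0.017 without a filter, -0.009 with the stricter filter and -0.016 without the heavy genes, and without 1 library -0.138 to 0.095. The tissue difference of Cdk1 ran from -0.55 to 0.004 without 1 library. The cause of these changes was not tested.

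With 3 libraries per group, values of single libraries weigh heavily in spleen. Counts are of reads without molecular identifiers.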
